A study of Bos taurus with 10 samples.

Results

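The SOX genes encode transcription factors that share the HMG box, a DNA-binding domain of the kind found in the sex-determining factor SRY. They were read here in single bovine early blastocysts with and without disruption of *SOX2*. Of 9 listed SOX genes, the 8 whose symbol named a row of the table were taken as members, namely *SOX2*, *SOX4*, *SOX7*, *SOX12*, *SOX13*, *SOX15*, *SOX18* and *SOX21*, out of 20112 genes in all. The ninth, *SOX9*, was not analysed here. The choice of members did not use their measured values, although it was made with results of these data known.

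SOX proteins bend DNA at a short shared motif and usually act with a partner factor. They are sorted into subgroups by the similarity of their HMG boxes: SOX2 belongs to B1, SOX21 to B2, SOX4 and SOX12 to C, SOX13 to D, SOX7 and SOX18 to F, and SOX15 to G. SOX2 with OCT4, encoded by *POU5F1*, is a known regulator of pluripotency genes, and in the mammalian blastocyst SOX2 comes to mark the inner cell mass and later the epiblast. In bovine early blastocysts, the stage read here, the paper found SOX2 protein in the trophectoderm as well as the inner cell mass. It reports restriction to the inner cell mass only in late blastocysts. SOXF proteins are best known from endothelium, SOXC and SOXB proteins from neural development, and SOX15 from muscle precursors and, in the mouse, from trophoblast giant cells.

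The data were 10 Smart-seq2 libraries, each from 1 whole embryo produced in vitro and collected at day 7 by the labels. In the WT group, 5 zygotes had been injected with mRNA of BE3, a cytosine base editor, and no guide. In the *SOX2* KO group, 5 zygotes had received the same mRNA together with a mixture of guides against *SOX2*, so all 10 embryos carried the editor. The *SOX2* KO embryos are injected founders and not a line, and the table holds counts per gene, in which an edited base is not visible. Values are read counts divided by 1 size factor per embryo, called normalized read counts below. They are not corrected for transcript length, so levels are compared between embryos and not between genes. Recovered reads on genes numbered 2223670 to 5134855 among WT and 2578284 to 4337342 among *SOX2* KO embryos. The 18S ribosomal RNA gene *RN18S1* took 26.4% to 37.0% of them among WT and 32.5% to 45.0% among *SOX2* KO embryos. Genes with at least 1 read numbered 15919 to 18092 among WT and 17987 to 19813 among *SOX2* KO embryos. In a whole embryo, fewer cells of a type and less RNA per cell cannot be told apart.

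All 8 members were tested, and none was called by limma at an adjusted p of at most 0.05 with a fold change of at least 2 in either direction. Across the 20056 genes tested, 10.1% were called in this way, 8.93% as higher and 1.16% as lower in *SOX2* KO embryos, and 0 of 8 is read as no result about the family. *SOX15* was the single member to pass the adjusted p alone, which 13.6% of all genes did. At an unadjusted p under 0.05 there were 3 members, *SOX7*, *SOX15* and *SOX18*, beside 32.4% of all genes. DESeq2 on the recovered reads called 1 of 8 members, *SOX18*, with 10.3% of all genes called. The quasi-likelihood test of edgeR called none of the 6 members it kept, with 8.77% of all genes called. No member had groups that did not overlap, against 9.17% of all genes. The log2 fold change (*SOX2* KO over WT) was above 0 for 5 members and below 0 for 3, and its median was 0.26 over the members and 0.25 over all genes tested. That median of all genes depended on the scaling, and lay at 0.14 after rescaling to equal totals, at 0.34 after rescaling by the median log ratio and at -0.02 after quantile normalization.

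**Figure D1:**
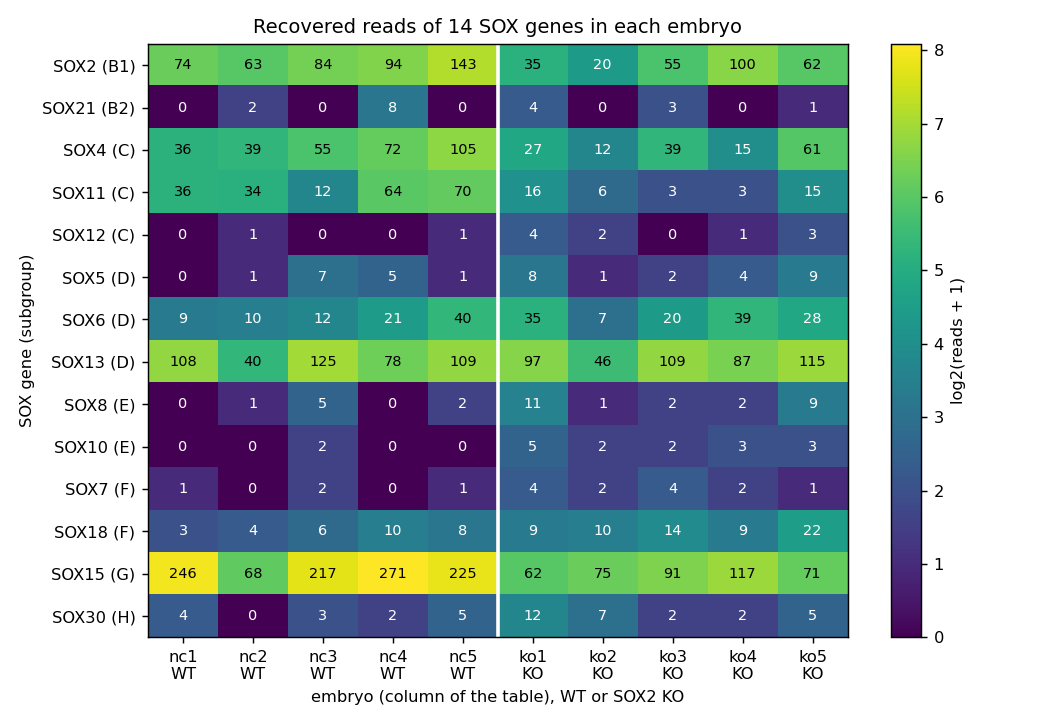
Reads recovered for 14 SOX genes (rows, with the subgroup in brackets) in 5 WT and 5 *SOX2* KO embryos (columns). Each cell gives the number of reads, and its colour the log2 of the reads plus 1. *SOX2* had 20 to 143 reads in each of the 10 embryos, whereas *SOX7*, *SOX12* and *SOX21* never had more than 8.

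*SOX2*, the edited gene, was read in every embryo. Its normalized read counts in the WT embryos nc1 to nc5 were 56.5, 93.4, 83.5, 73.0 and 84.4, with a mean of 78.2 ± 14.1 (SD, n = 5). In the *SOX2* KO embryos ko1 to ko5 they were 39.0, 26.4, 64.0, 82.1 and 71.5, with a mean of 56.6 ± 23.2 (SD, n = 5). Embryos ko1 and ko2 lay below every WT embryo, and the other three *SOX2* KO embryos lay within the WT range. The log2 fold change was -0.55 (SE 0.27, 95% interval -1.12 to 0.02) and did not pass the test (limma, adjusted p = 0.167). The two-sided exact permutation test gave p = 0.119, where 0.00794 is the smallest p that 5 against 5 embryos allow. The level of *SOX2* mRNA is not read here as a genotype, since a transcript with a premature stop codon can still be counted. By the paper, the embryos were genotyped from part of the cDNA library of each blastocyst. Why *SOX2* reads were kept was not tested.

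The *SOX2* KO embryos covered a wider range of *SOX2* than the WT embryos. The highest value was 3.11 times the lowest in *SOX2* KO and 1.65 times in WT, and the coefficient of variation was 41.0% and 18.1%, of which counting alone would give 15.7% and 10.9%. On the log2 scale the SD of *SOX2* was 0.67 in *SOX2* KO embryos, above that of 93.2% of the 2434 genes with a mean of 50 to 100, whose median SD was 0.33. In WT it was 0.28, above 35.3% of those genes, whose median SD was also 0.33. The difference in spread between the groups was not tested.

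A long noncoding RNA gene, *LOC100849009*, overlaps *SOX2* in the annotation ARS-UCD2.0. It had 1, 0, 2, 0 and 3 reads in WT and 11, 5, 1, 0 and 6 reads in *SOX2* KO embryos, and did not pass the test (limma, adjusted p = 0.162). In ko1 and ko2, the embryos with the lowest *SOX2*, its 11 and 5 reads stood beside 35 and 20 reads of *SOX2*. Whether reads of one of the 2 genes were counted for the other was not tested. Of the nearest genes of the table on either side of *SOX2*, *ATP11B* had a log2 fold change of 0.21 (SE 0.17, limma, adjusted p = 0.385), and *DNAJC19* one of -0.79 (SE 0.22), which passed the adjusted p (limma, 0.0249) but not the threshold on the fold change.

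The 3 genes whose pattern over the 10 embryos was nearest to that of *SOX2*, out of 6981 genes averaging 50 or more, were *PHF20L1*, *COL4A2* and *SNRPF*. Their root mean square differences from *SOX2* were 0.27, 0.28 and 0.28 on the centred log2 scale, where the median gene differed by 0.59. They share with *SOX2* a low value in ko2, and none passed the test between the groups (limma, adjusted p = 0.333, 0.290 and 0.202). The 10 values share 10 libraries and their scaling, and the nearest genes are given as a description.

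**Figure D2:**
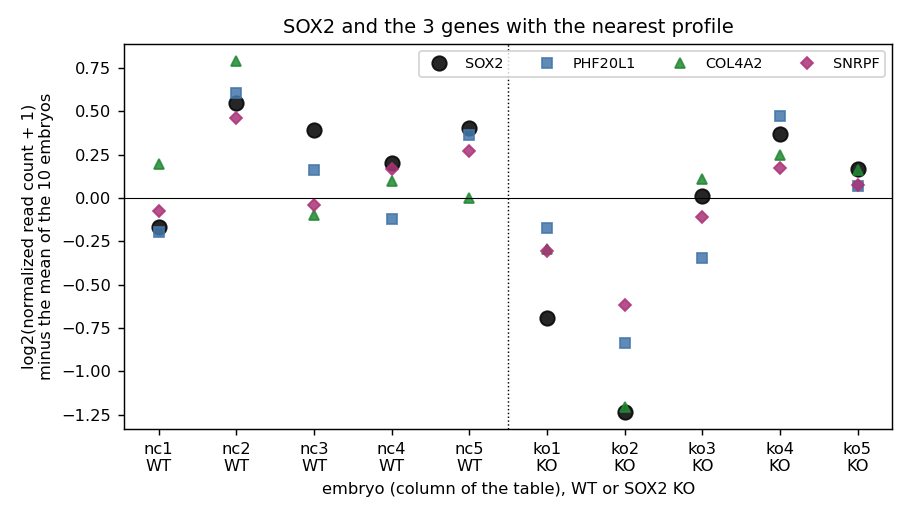
Centred log2 normalized read counts of *SOX2* and the 3 genes with the nearest pattern (vertical axis) in each WT and *SOX2* KO embryo (horizontal axis), 1 point per gene and embryo. The lowest point of *SOX2* is ko2, with 20 reads, where the other three genes are also at their lowest.

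*SOX21*, the B2 member, which is known to repress many of the genes that SOX2 activates, was close to the limit of detection. It had 0, 2, 0, 8 and 0 reads in WT and 4, 0, 3, 0 and 1 reads in *SOX2* KO embryos. No read was seen in 3 WT and 2 *SOX2* KO embryos, which allows up to 3 reads in each of them. The summed reads were 10 and 8, a ratio of 0.947 per recovered read, those of *RN18S1* included (95% exact interval 0.325 to 2.67, counting error only). The sign of the log2 fold change of *SOX21*, 0.18, turned with the scaling, with -0.67 after quantile normalization (limma, adjusted p = 0.884 as deposited).

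The SOXC genes *SOX4* and *SOX12* encode activators known from neural and other progenitors. *SOX4* had normalized read counts of 27.5, 57.8, 54.7, 55.9 and 62.0 in WT embryos (51.6 ± 13.8, SD, n = 5) and of 30.1, 15.8, 45.4, 12.3 and 70.3 in *SOX2* KO embryos (34.8 ± 23.8, SD, n = 5). The lowest and the highest of the 10 values were both from *SOX2* KO embryos, ko4 and ko5, and 4 of 5 WT embryos lay close together with nc1 well below them. The log2 fold change was -0.77 (SE 0.38, 95% interval -1.57 to 0.02) and did not pass the test (limma, adjusted p = 0.165). The highest value of *SOX4* was 5.71 times the lowest among *SOX2* KO embryos and 2.26 times among WT embryos.

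*SOX12* had 0, 1, 0, 0 and 1 reads in WT and 4, 2, 0, 1 and 3 reads in *SOX2* KO embryos. Its summed reads were 2 and 10, a ratio of 5.92 per recovered read with a counting interval of 1.26 to 55.6. *SOX12* did not pass the test between embryos (limma, adjusted p = 0.193). The remaining SOXC gene, *SOX11*, is not among the members and was called lower in *SOX2* KO embryos. It had normalized read counts of 27.5, 50.4, 11.9, 49.7 and 41.3 in WT and of 17.8, 7.92, 3.49, 2.46 and 17.3 in *SOX2* KO embryos. Only nc3 lay within the *SOX2* KO range, and the log2 fold change was -1.95 (SE 0.50, limma, adjusted p = 0.0172). Of all genes averaging 10 or more, 1.9% were called lower. When the *RN18S1* share entered the fit as a covariate, *SOX11* kept a log2 fold change of -1.96 and no longer passed (limma, adjusted p = 0.177).

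*SOX13*, of the SOXD subgroup, which lacks an activation domain of its own and acts through partners, was read well in all embryos. Its normalized read counts were 82.4, 59.3, 124, 60.6 and 64.3 in WT (78.2 ± 27.4, SD, n = 5) and 108, 60.7, 127, 71.5 and 133 in *SOX2* KO embryos (99.9 ± 32.4, SD, n = 5). The 2 ranges nearly coincide, with nc3 among the high values and ko2 among the low ones. The log2 fold change of 0.34 (SE 0.25, 95% interval -0.18 to 0.87) did not pass the test (limma, adjusted p = 0.355), lay near the median of all genes, and became -0.22 with the *RN18S1* share as a covariate. The other SOXD genes did not pass either, with log2 fold changes of 0.80 for *SOX6* (SE 0.41, limma, adjusted p = 0.181) and 0.92 for *SOX5* (SE 0.64, limma, adjusted p = 0.329), the latter on at most 9 reads per embryo.

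The SOXF genes *SOX7* and *SOX18* encode activators known from endothelial development. *SOX18* had normalized read counts of 2.29, 5.93, 5.97, 7.77 and 4.72 in WT (5.34 ± 2.02, SD, n = 5) and of 10.02, 13.2, 16.3, 7.39 and 25.4 in *SOX2* KO embryos (14.5 ± 6.96, SD, n = 5), from 3 to 10 and from 9 to 22 reads per embryo. All *SOX2* KO embryos lay above all WT embryos, except that ko4 lay just below nc4. The log2 fold change was 1.25 (SE 0.46, 95% interval 0.28 to 2.21), with an adjusted p of 0.0738 by limma and 0.0847 by edgeR, and with 0.0481 by DESeq2, at which *SOX18* was called. Without nc3 the adjusted p of DESeq2 was 0.0569, and without ko4 that of limma was 0.0352. For *SOX18* the log2 fold change was 0.81 with the *RN18S1* share as a covariate (limma, adjusted p = 0.548) and 0.71 after quantile normalization (limma, adjusted p = 0.365).

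*SOX7* had 1, 0, 2, 0 and 1 reads in WT and 4, 2, 4, 2 and 1 reads in *SOX2* KO embryos, in sum 4 and 13. The ratio per recovered read was 3.85 with a counting interval of 1.19 to 16.2, and the difference did not pass the test (limma, adjusted p = 0.112). Values of *SOX7* and *SOX18* stand beside those of 10 endothelial marker genes, such as *KDR* and *CDH5*. Their summed normalized read counts were 126 to 195 among WT and 178 to 412 among *SOX2* KO embryos, and 1 of 10, the adhesion molecule *PECAM1*, was called higher, with a log2 fold change of 1.04 (limma, adjusted p = 0.00641). *PECAM1*, with means of 108 in WT and 224 in *SOX2* KO embryos, made up most of these sums on average. The median log2 fold change of the 10 genes was 0.83 against 0.25 over all genes, and 8 of them had a mean under 10. The call is 1 of 10 where 8.93% of all genes were called higher, and 14.1% of those averaging less than 10. It is read as no result about endothelial genes. The part of such genes, and of the larger number of genes detected, in the values of *SOX18* was not tested.

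The 4 members with a mean under 10 were *SOX7*, *SOX12*, *SOX18* and *SOX21*, of which none was called higher by limma. Of all genes averaging less than 10, 14.1% passed as higher in *SOX2* KO embryos.

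*SOX15*, the single SOXG gene, had the clearest difference of the members between the groups. Its normalized read counts were 188, 101, 216, 211 and 133 in WT (169.5 ± 50.6, SD, n = 5) and 69.0, 99.0, 106, 96.1 and 81.9 in *SOX2* KO embryos (90.4 ± 14.8, SD, n = 5). The lowest WT embryo, nc2, lay within the *SOX2* KO range, below ko3 alone, and the other 4 WT embryos lay above every *SOX2* KO embryo. The log2 fold change was -0.86 (SE 0.21, 95% interval -1.30 to -0.41, limma, adjusted p = 0.0144), a fold of 0.552 that did not reach the threshold on the fold change. The exact permutation test gave p = 0.0159, two-sided and without adjustment.

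The adjusted p of *SOX15* passed in all 10 fits lacking 1 embryo each, at log2 fold changes of -1.03 to -0.76. Without nc2 the fold change exceeded the threshold and *SOX15* was called, with -1.03 (limma, adjusted p = 0.00412). With the *RN18S1* share as a covariate it was -1.07 and just missed (limma, adjusted p = 0.0508). The genes next to *SOX15* in ARS-UCD2.0 did not pass the test. *MPDU1* had a log2 fold change of -0.31 (SE 0.29, limma, adjusted p = 0.469) and *FXR2* of 0.09 (SE 0.21, limma, adjusted p = 0.792).

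**Figure D3:**
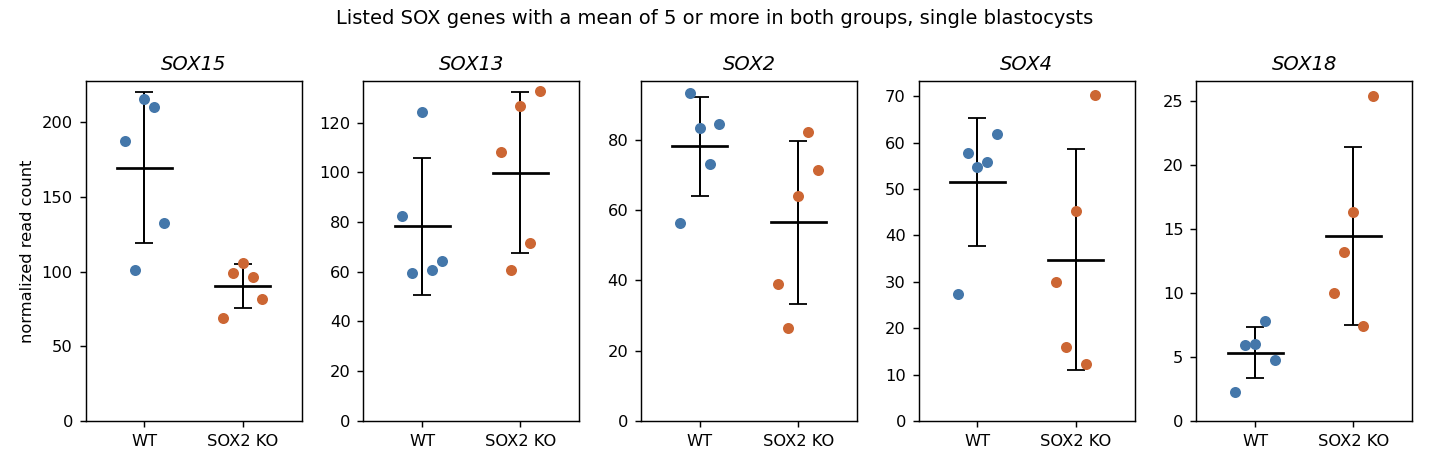
Normalized read counts (vertical axes, from 0) of *SOX15*, *SOX13*, *SOX2*, *SOX4* and *SOX18* in 5 WT and 5 *SOX2* KO embryos. Each point is 1 embryo, lines are means and bars 1 SD, and the means of *SOX15* were 169.5 in WT and 90.4 in *SOX2* KO, with 1 WT embryo within the *SOX2* KO range.

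**Figure D4:**
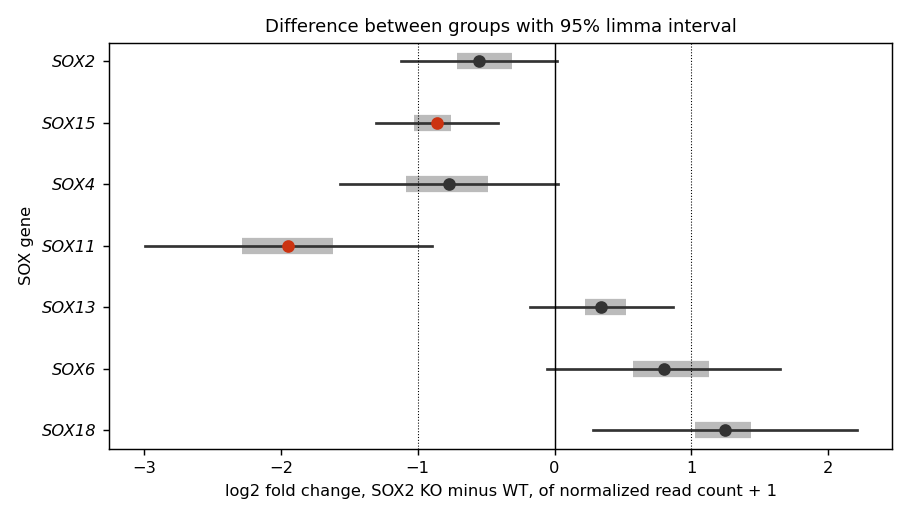
Log2 fold change of *SOX2* KO over WT (horizontal axis) for the 7 SOX genes with the most reads (vertical axis). Points are limma estimates, red where the adjusted p was at most 0.05, lines are 95% intervals, grey boxes the range when each embryo is left out in turn, and dotted lines the threshold on the fold change. *SOX15* at -0.86 and *SOX11* at -1.95 are the red points.

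The makeup of the SOX reads is given as a description. Over all 14 SOX genes of the table, *SOX15* gave 25.9% to 47.6% of the normalized SOX read counts among WT and 17.5% to 39.3% among *SOX2* KO embryos. *SOX13* gave 12.5% to 23.6% among WT and 22.7% to 31.5% among *SOX2* KO embryos, so that 1 WT embryo reached the *SOX2* KO range. *SOX2*, *SOX4*, *SOX11*, *SOX13* and *SOX15* together gave 91.8% to 96.7% among WT and 72.0% to 85.8% among *SOX2* KO embryos. These genes had the highest means in WT, so part of the lower share in *SOX2* KO embryos is built into their choice. In *SOX2* KO embryos the mean normalized read count was 27.2 for *SOX6* and 9.80 for *SOX11*. These 2 values bear on the choice of the 5 genes only, since counts not corrected for transcript length do not rank the levels of genes. All these percentages are shares of reads, and the comparison was not tested. The number of SOX genes with at least 1 read was 9 to 12 of 14 among WT and 13 to 14 among *SOX2* KO embryos, and 9 to 11 and 11 to 14 after every embryo was thinned to 2223670 reads. Over all genes, those with at least 1 read numbered 15919 to 18092 among WT and 17987 to 19813 among *SOX2* KO embryos. No count over all genes was made after thinning, and the SOX counts are read as no result about the family.

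Of the SOX genes beyond the members, 6 of 11 were tested. One was *SOX11*, and *SOX10*, a SOXE gene known from the neural crest, was called higher (limma, adjusted p = 0.0329) on 0, 0, 2, 0 and 0 reads in WT and 5, 2, 2, 3 and 3 reads in *SOX2* KO embryos. *SOX10* was not called by DESeq2 (adjusted p = 0.0819) or edgeR (adjusted p = 0.0694) over all embryos, and was called by both without nc3, the WT embryo with its 2 reads (adjusted p = 0.0242 by DESeq2 and 0.0191 by edgeR). The limma call was lost in 7 of the 10 fits lacking 1 embryo each, those without nc1, nc2, nc4, nc5, ko1, ko3 or ko5, with adjusted p from 0.0510 to 0.0788. *SOX8* and *SOX30* did not pass (limma, adjusted p = 0.169 and 0.192). *SRY*, *SOX1*, *SOX3*, *SOX14* and *SOX17* were not analysed here.

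Genes that SOX2 is known to regulate with OCT4, or that act with it, were lower in part in *SOX2* KO embryos. Of 12 listed, 9 were tested, and 3 were called lower and none higher. Over all genes 1.16% were called lower and 8.93% higher. Of genes averaging 10 or more 1.9% were called lower, and 2 of the 9 had a mean under 10. The median log2 fold change of the 9 was -0.71 against 0.25 over all genes. *NANOG*, a pluripotency factor, had means of 69.8 and 4.21 normalized read counts in WT and *SOX2* KO embryos, and its log2 fold change was -3.70 (SE 0.64, limma, adjusted p = 0.00127). The signalling ligand gene *LEFTY2* changed by -2.15 (limma, adjusted p = 0.0490) and the zinc finger gene *ZFP42* by -1.04 (limma, adjusted p = 0.0147). *POU5F1* had 1212 ± 188 in WT and 723 ± 118 in *SOX2* KO embryos (SD, n = 5), and its log2 fold change of -0.75 passed the adjusted p (limma, 0.00631) without reaching the fold threshold. The paper had reported *NANOG*, *POU5F1* and *SALL4* as lower in the *SOX2* KO blastocysts of this experiment. The list was chosen with such results known, so its counts are not independent of them.

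Of 11 genes known as targets of SOX9 in cartilage or gonad, 10 were tested and 4 were called higher, beside 14.1% of all genes averaging less than 10, namely the cartilage matrix genes *ACAN* (log2 fold change 2.89), *COL9A3* (2.70), *COL11A2* (2.28) and *COL9A1* (1.92), with limma adjusted p = 0.00404, 0.00948, 0.0162 and 0.0409. The median log2 fold change of the 10 was 1.66, 9 of them had a mean under 10, and their summed normalized read counts were 6.22 to 78.6 among WT and 52.6 to 170 among *SOX2* KO embryos. Of 11 further genes with a sequence-specific HMG box, 10 were tested and none was called, beside 10.1% of all genes. Of 16 genes with an HMG box of another kind, 15 were tested, and *HMGB2*, a chromatin protein, was the single gene called lower, beside 1.9% of all genes averaging 10 or more, with 256 ± 74.8 in WT and 127 ± 42.0 in *SOX2* KO embryos (SD, n = 5, log2 fold change -1.01, limma, adjusted p = 0.00641).

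Lineage markers moved with the groups beside these SOX values. The paper had reported *NANOG*, *POU5F1*, *PRDM14* and *SALL4* as lower and *PAG2* as higher in this experiment. Counts of the epiblast and trophectoderm lists are therefore not independent of its results. Of 9 epiblast markers, 5 were called lower, beside 1.16% of all genes and 1.9% of those averaging 10 or more. This list shares *NANOG*, *POU5F1*, *ZFP42*, *TDGF1* and *SALL4* with the list of partners. The summed normalized read counts of the 9 markers were 2503 to 3028 among WT and 1180 to 1615 among *SOX2* KO embryos. Of 12 trophectoderm markers 3 were called higher, beside 8.93% of all genes, and none lower. That share was 14.1% for genes averaging less than 10, which held for 1 of the 12. By the adjusted p alone 4 passed as higher and 1, *TFAP2C*, as lower (log2 fold change -0.49, limma, adjusted p = 0.0352). The sums were 24786 to 36776 among WT and 35007 to 49214 among *SOX2* KO embryos. Most of each sum came from *KRT8* and *KRT18*, which were not called, so the sums say little about the other markers. Of 9 hypoblast markers tested, 1 was called higher and 3 lower, beside 8.93% and 1.16% of all genes. Of genes averaging 10 or more 1.9% were called lower. The sums of these markers were 1642 to 1960 among WT and 1837 to 2020 among *SOX2* KO embryos. None of 8 cumulus and granulosa markers, with sums of 10.4 to 62.2 and 32.0 to 71.3, and none of 6 neural progenitor markers tested, with sums of 128 to 295 and 135 to 356, was called, beside 10.1% of all genes in either direction. The part of these lineages in the values of *SOX15*, *SOX11* and *SOX2* was not tested.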

How the data were processed

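The table held 1 column for each of 10 embryos, 5 WT and 5 *SOX2* KO. The authors trimmed Smart-seq2 reads with Trimmomatic, aligned them by HISAT2 against ARS-UCD1.2, and obtained read counts per gene from featureCounts. What the authors deposited is a normalized signal, in which those counts were scaled by 1 DESeq2 size factor per embryo. The annotation release, the strand setting and the treatment of reads on several genes are not given in the sources used here, so reads of overlapping genes could be shared. Dividing by 1 step per embryo turned 201120 of 201120 values (100%) into whole reads within 1e-06, and no gene had fewer than 11 reads in all. The step of nc3 was within 1% of 1, where scaled values and whole counts look alike, and the count tests were therefore also run without it, a choice made after the values were seen. WT columns carry the replicate numbers of the labels, and ko1 to ko5 were used by group only. All 10 columns were used, leaving 0 out.

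limma 3.58.1 (lmFit, then eBayes with a mean-dependent trend) was fitted to log2(normalized read count + 1) of the 20056 genes averaging 1 or more. A gene was called when its Benjamini-Hochberg adjusted p did not exceed 0.05 and its fold change was 2 or more, or 0.5 or less. Fold changes on this scale understate the change of genes with few reads. DESeq2 (1.42.0) and edgeR (4.0.16, quasi-likelihood) were run on the recovered reads in R 4.3.3, and single genes were tested by exact permutation in Python 3.11.15 with scipy 1.17.1. limma, DESeq2 and edgeR were checked on simulated counts with 200 genes changed 4-fold. They called 68.5%, 75.5% and 72% of these genes, with 5, 14 and 2 false calls, so a gene not called may still differ. The spread was set in the simulation, and these rates need not hold for the embryos. The p-values measure the spread between these embryos, and read intervals (95%) and the floor of 3 reads cover counting error only, since reads carry no molecular identifiers.

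The members and lists were chosen with earlier results of these data known. Named were all members, the called genes of each list (4 at most, largest change first), *POU5F1*, *NANOG* and the 3 genes nearest to *SOX2*. The remaining SOX genes and the neighbouring or overlapping genes were named after their values were seen. The lists were the members, other SOX genes, genes with sequence-specific and other HMG boxes, partners and targets of SOX2 with OCT4, SOX9 targets, and markers of epiblast, hypoblast, trophectoderm, cumulus and granulosa, endothelium and neural progenitors. Alternatives were other pseudocounts (0.1 and 5), scalings, filters (none, or a mean of at least 10), quality weights, covariates, thinned reads, no threshold on the fold change, the count tests and leaving out each embryo. Gene neighbours are from RefSeq on ARS-UCD2.0, and no coordinates are given because the builds differ.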

Additional observations from a re-analysis of the deposited data

Results flagged for a closer look

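In 2 of 28 sets of 5 embryos (14 SOX genes in each group) 1 embryo stood far from the others. Chance would give about 1.4 for normally distributed values, a rate that does not hold for genes with few reads. A set with 0 reads in all but 1 embryo is always flagged. *SOX4* in the WT embryo nc1 was 1 of the 2 flagged values, at a log2 value of 4.83 with 36 reads, while the nearest other WT embryo was at 5.80. *SOX10* in the WT embryo nc3 was the other, at a log2 value of 1.58 from 2 reads, while the other four WT embryos had 0.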

How the results depend on the processing

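No member was called as reported. Sample quality weights and DESeq2 each called 1 member (*SOX18*), dropping the threshold on the fold change gave 1 (*SOX15*), and leaving out 1 embryo gave 0 to 1, with *SOX15* without nc2 and *SOX18* without ko4. The exact permutation test reached p under 0.05 for 3 members as reported and for 1 after quantile normalization. *SOX2* did not pass the test in any fit, with log2 fold changes of -0.71 to -0.31 without 1 embryo. *SOX13* turned to -0.22 with the *RN18S1* share as a covariate. *SOX21* turned to -0.67 after quantile normalization, to -0.037 with that covariate, and to -0.32 (DESeq2) and -0.36 (edgeR) without nc3, and lay between -0.15 and 0.65 without 1 embryo. For these the cause was not tested. *XIST* as a covariate changed no member's call. No paired analysis was possible because replicate numbers of the labels could not be tied to the columns ko1 to ko5. Counting error is widest for *SOX7*, *SOX12* and *SOX21* among the members, which had at most 8 reads per embryo.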
